A study of Caenorhabditis elegans with 9 samples.

Results

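The Srg superfamily is 1 of the large groups of chemoreceptor genes of the nematode Caenorhabditis elegans, and it is made up of the srg, srt, sru, srv, srx and srxa families. Its members were taken by symbol from the tables that assign noncoding DNase I hypersensitive sites (DHS) to genes in the embryo and in L1 arrest. A gene was a member if its symbol began with srg-, srt-, sru-, srv-, srx- or srxa-, and 99 genes of the 11435 in either table qualified. Of these, 95 are listed as protein coding and 4 as pseudogenes. By family there were 23 srg, 22 srt, 7 sru, 8 srv, 35 srx and 4 srxa genes.

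DNase-seq marks accessible DNA, because DNase I cuts most readily where no nucleosome lies. All animals were of the wild-type N2 strain with no transgene. Embryos at around 40 cells gave 4 biological replicates, and larvae in L1 arrest, the halted state of newly hatched larvae without food, gave 5. No fed larvae were sampled, so stage and starvation cannot be told apart in any difference between the lists. The deposited lists merge the replicates of a stage, so nothing below could be set against the spread between replicates and no test was made. Shares carry exact (Clopper-Pearson) 95% binomial intervals in parentheses, which cover counting error only. The read depth behind a site is not given in the lists. Nuclei came from whole animals, so fewer cells with an open site and weaker opening in each cell cannot be told apart.

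Nematode chemoreceptors are G protein-coupled receptors with several membrane-spanning helices, placed mainly in the cilia of sensory neurons that meet the outside world. A bound odour, salt or pheromone acts through G proteins on cyclic GMP or on ion channels, and so changes the activity of the neuron. A chemoreceptor gene is usually expressed in 1 or a few neuron types, many of the genes lie in tandem arrays on chromosome V, and most have no known ligand. At the sampled embryonic stage the sensory neurons have not yet differentiated. Among the few Srg superfamily genes with a known role, srg-36 and srg-37 encode receptors of the ASI neurons for an ascaroside of the dauer pheromone, which larvae use to decide on diapause. For most of the genes named below no role beyond membership of the receptor family is given.

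The genes that the authors' motif files tie to embryo DHS included 17 members, in 18 of 57 motif lists. That was 18.9% of the members with an embryo DHS, against 19.8% of all genes with one. The words that follow are forms of some of these motifs, shown as examples of the letters behind the lists. Other motifs that list members are not shown. Most motifs have several forms, and the files do not say which form a gene holds, so each word belongs to the motif and not to the gene. The most frequent form is given, and for the motif of srx-28 all 3. Each is written 5′ to 3′ and wholly in capitals, since the whole word is the motif. The files do not give the position of a word within a gene, so a listing is not a site. Members named here that the naming rule did not take (srt-42, srv-34, srv-3 and srv-24) were chosen after their values were seen.
Intron motif listing srx-28, srx-120 and srt-42, most frequent form: GCAGCCGAC
Intron motif listing srx-28, srx-120 and srt-42, another form: GCGGCCGAC
Intron motif listing srx-28, srx-120 and srt-42, least frequent form: GCCGCCGAC
Intron motif listing srv-34, sole form: TGCGCCTTTAA
Intron motif listing srx-105, most frequent form: AATTTGAATTTC
Noncoding motif listing srg-19 and srv-24, most frequent form: GGACCTTTGCC
Noncoding motif listing srxa-9, most frequent form: GGAGTGTCGTT
Noncoding motif listing srv-3, most frequent form: GGGGTCGAACC
A further noncoding motif listing srv-3, most frequent form: CCACTGCGCCA

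The intron motif that lists srx-28, srx-120 and srt-42 lists 165 genes in all. In the authors' deposited motif file GCAGCCGAC stood in 102 intronic DHS sequences and 6 background sequences, GCGGCCGAC in 85 and 5, and GCCGCCGAC in 22 and 5. The motif that lists srv-34 lists 25 genes, and in the authors' deposited motif file TGCGCCTTTAA stood in 26 sequences and in 0 of the background. For the motifs that list srv-3, which list 99 and 57 genes, the authors' deposited motif file gave GGGGTCGAACC in 64 sequences against 1 and CCACTGCGCCA in 29 against 0. The reverse complement of the former, GGTTCGACCCC, has the letters of the B box of transfer RNA genes, as background. No transfer RNA gene overlapped srv-3 in the gene table, while 3 overlapped srv-16 and 3 overlapped srxa-9. Of the 24 member entries, 12 came from all noncoding DHS, 8 from introns, 2 from promoters, 1 from intergenic DHS and 1 from footprints.

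Fewer of these receptor genes had an assigned DHS than genes did in general. Of the 309 protein-coding genes of the superfamily in the gene table, 86 had an embryo noncoding DHS, or 27.8% (22.9 to 33.2), against 52.4% of all coding genes. In L1 arrest 64 had one, or 20.7% (16.3 to 25.7), against 38.9%. Both intervals lay wholly below the value over all genes. The other chemoreceptor groups were also below all genes, with 27.1% and 20.3% of 580 Str genes, 34.7% and 27.4% of 124 Sra genes and 24.3% and 19.4% of 288 genes of the solo families in the embryo and L1 arrest.

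Among the 6 families, srx had the widest gap between the stages. All coding genes also had a lower share in L1 arrest, at 38.9% against 52.4%, and the embryo list is the longer. Among its 101 coding genes 31.7% (22.8 to 41.7) had an embryo DHS and 15.8% (9.33 to 24.4) an L1 DHS. In the srt family the share was 27.9% of 61 genes in each stage, and in the srv family 23.3% of 30 genes in each stage. The srg family had 32.8% and 26.2% of 61 genes, the sru family 15.4% and 12.8% of 39, and the srxa family 23.5% and 17.6% of 17. The intervals of the families overlapped one another within each stage, so their order is not resolved by the counts.

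**Figure D1:**
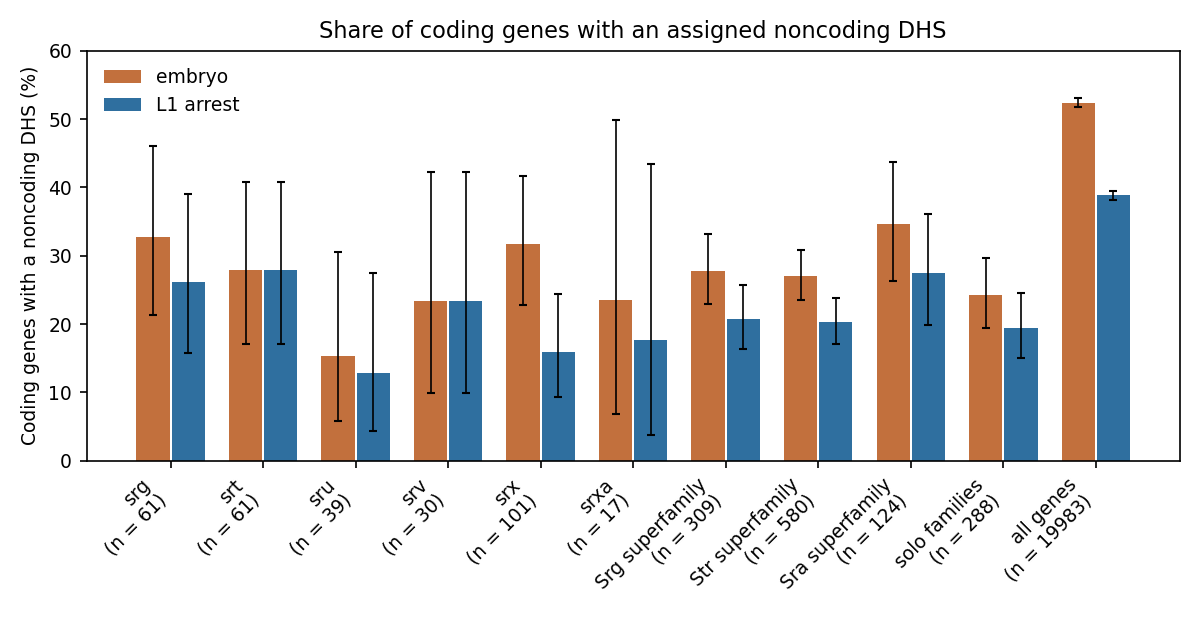
Percent of protein-coding genes with an assigned noncoding DHS (vertical axis) in the embryo (orange) and in L1 arrest (blue), for the 6 families, the superfamily, the other chemoreceptor groups and all genes, with n genes under each pair. Error bars are exact 95% binomial intervals for counting error. The superfamily bars stand at 27.8% and 20.7%, below the 52.4% and 38.9% of all genes, and the srx pair drops from 31.7% to 15.8%.

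Counted as genes, 59 members appeared in both tables, 31 in the embryo table alone and 9 in the L1 table alone. Embryo-only members made up 31.3% of the 99, near the 28.3% of all genes in either table, while L1-only members made up 9.09% against 3.32%. The families differed in this split. Of the 35 srx members 17 were embryo-only and 1 was L1-only, whereas of the 22 srt members 4 were embryo-only and 4 were L1-only. The srg family had 6 embryo-only and 2 L1-only genes, the sru family 2 and 1, the srv family 1 and 1, and the srxa family 1 and 0. These are small counts, and the difference between families was not tested.

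The members held 140 embryo and 102 L1 DHS, each assigned to 1 gene. L1 DHS thus made up 42.1% of the member DHS, against 37.6% over all genes. Of the 99, 33 had a single DHS over both stages, and no gene had more than 4 in a stage. More embryo than L1 DHS were found at 46 members, equal numbers at 36 and more L1 DHS at 17. The embryo list is the longer, and this split was not counted over all genes. The srx-120 gene on chromosome II had most in the srx family, with 4 embryo and 3 L1 DHS, and srxa-9 on chromosome X had most in the srxa family, with 3 and 4. In the other families most stood at srg-66 (2 and 4), srt-52 (3 and 3), sru-21 and sru-47 (3 and 3 each) and srv-4 (3 and 3). The srx-17 gene also had 3 and 3. A total of 5 was found at 5 members, namely srg-19 and srxa-15 (3 and 2), srg-30 and sru-17 (2 and 3) and srg-55 (4 and 1).

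Positions of member DHS relative to genes were close to those of DHS at large. In the embryo 46.4% were intronic, 20.0% lay in promoters (here, under 300 bp from the gene) and 33.6% were intergenic, against 44.3%, 19.1% and 36.7% over all genes. The deposited distance can run to either end of a gene, as at srg-55 and srt-24. Sites called promoter here may therefore lie just downstream of a gene. In L1 arrest the shares were 44.1%, 16.7% and 39.2%, against 40.8%, 18.7% and 40.5%. Intergenic member DHS, those beyond the promoter limit, had a median distance to the gene of 895 bp in the embryo and 972.5 bp in L1 arrest, against 1534.5 bp and 1558 bp over all genes.

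The authors' DHS score was ranked within each stage's own list, from 0 for the weakest to 100 for the strongest site. The median rank of member DHS was 44.4 in the embryo (quartiles 20.7 and 70.2) and 51.0 in L1 arrest (30.6 and 71.5). Ranks in lists of different length show no change between stages. The tenth of each list with the highest scores held 7.86% of embryo member DHS (11 sites) and 3.92% of L1 member DHS (4 sites). The 11 count both parts of the srx-17 promoter DHS described below. The lowest family median was that of the sru embryo DHS, at 27.5.

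**Figure D2:**
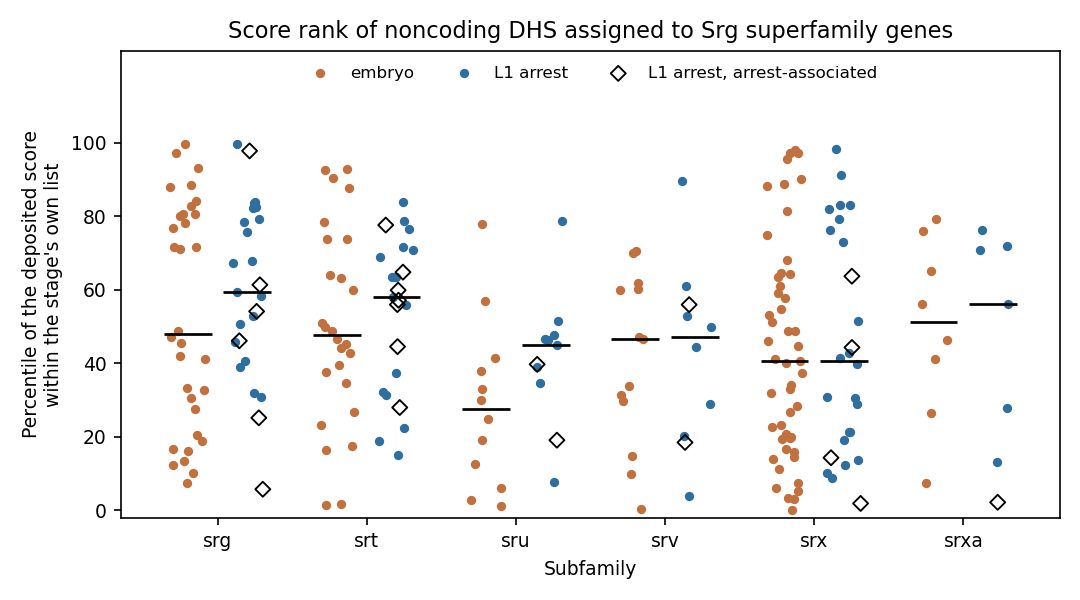
Rank of the deposited score of each member DHS within its own stage's list (vertical axis, percentile) by family, for the embryo (orange), L1 arrest (blue) and L1 DHS that are arrest-associated (open diamonds). Black bars are medians. Points in each family span most of the range, the sru embryo median is lowest at 27.5, and the arrest-associated diamond at the top belongs to srg-37 at 97.8.

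The strongest site was an intronic DHS of srg-58 on chromosome V, at chrV:2758541-2758690 in the ce10 build. Its score was 3128 in the embryo list and 3903 in the L1 list, which placed it at rank 99.5 and 99.6, with 4 and 3 footprints. A footprint is a short stretch inside a DHS that is protected from DNase I, as under a bound protein. The neighbouring gene srx-28 carried an intronic DHS at chrV:2756121-2756270 with an embryo score of 1379, rank 97.9 and 7 footprints. No L1 noncoding DHS overlapped it. Both genes lie in an array of 8 consecutive coding genes of the superfamily, of which srg-58 is the last.

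Other high sites were shared between the stages or cut into parts. The intergenic DHS of srx-125 ranked 95.6 in the embryo (score 806) and 98.4 in L1 arrest (score 1487), and a neighbouring L1 site of the same gene ranked 91.1. In the gene table the coding gene ifbp-1 overlaps srx-125, and 12 members in all are overlapped by another coding gene. The promoter DHS of srx-17 is listed as 2 noncoding parts of 61 bp and 74 bp that share a score, which was 1075 (rank 97.1) in the embryo list and 350.0 (rank 83.0) in the L1 list. At srg-19, listed as a pseudogene, a part of 40 bp ranked 97.2 in the embryo and had no overlapping L1 DHS. Its other 2 intronic DHS were open in both stages, at ranks 84.2 and 71.6 in the embryo and 82.5 and 83.8 in L1 arrest. These are again ranks in lists of different length, which show no change between stages.

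The share of member embryo DHS that overlapped an L1 noncoding DHS by at least 1 bp was 57.1% (48.5 to 65.5), or 80 of 140, against 53.4% over all genes. In the srx family it was 42.9%, and in the others it ran from 61.5% (srt and srv) through 62.5% (srg) to 75.0% (sru and srxa). Overlap rose with the embryo score, from 20.6% of member DHS in the lowest quintile to 96.0% in the fourth and 81.8% in the highest, against 12.7%, 82.6% and 93.5% over all genes. Read the other way, 78.4% (69.2 to 85.96) of member L1 DHS overlapped an embryo noncoding DHS, against 88.6% over all genes.

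Among the sites open in both stages, those of the superfamily tended to stand higher in the L1 ranking. The 80 shared pairs were ranked among all sites shared by the stages, once by embryo and once by L1 score. They ranked higher in L1 arrest in 50 pairs and lower in 30, so 62.5% were higher against 45.1% of all 14256 shared pairs. Parts with a common score count as separate pairs, as at srx-17 (in both stages) and srx-53 (in the embryo), so the pairs are not all independent. The median difference was 6.86 percentile points against -1.19 over all pairs. A gain of over 25 points toward L1 arrest was found in 22 pairs (27.5% against 10.8%), and one of that size toward the embryo in 5 (6.25% against 9.13%). Members also stood low in the embryo ranking, at a median of 34.9 against 49.2 in the L1 ranking, and low sites have more room to rise. Within the lowest quintile of embryo rank 20 of 25 member pairs were higher in L1 arrest (80.0% against 74.2% of all pairs). In the next quintile 15 of 20 were higher (75.0% against 49.3%), in the third and the fourth 6 of 13 each (46.2% against 38.7% and 32.0%), and in the highest 3 of 9 (33.3% against 31.3%).

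The sites with the largest differences were chosen after their values were seen. An intergenic site at chrV:13365901-13366050, assigned to srg-46 in the embryo and to srx-125 in L1 arrest, went from 18.6 to 90.3 in the shared rankings. It was the only 1 of the 80 pairs assigned to different genes. The intronic DHS of srg-65 went from 7.70 to 65.3, and the intergenic DHS of srg-66 nearest to the gene from 1.93 to 56.0. Of the 3 shared intronic DHS of srxa-9, the first went from 58.3 to 69.0, the second from 15.2 to 70.1 and the third from 29.1 to 74.7. Both shared intergenic DHS of srv-24 were higher in the L1 ranking, by 48.6 and 40.1 points. In the other direction srg-34 fell by 37.0 points, srg-21 fell by 36.9, srv-2 fell by 30.8, srxa-4 fell by 29.1 and srx-43 fell by 28.1. A microRNA gene, mir-4935, overlaps srg-34 in the gene table. The srx-43 gene and its neighbour srx-44 have been linked to the response to an indole ascaroside, and each kept 1 DHS in both stages. The promoter DHS of srx-44 went from 32.9 to 19.6 in the shared rankings, and its intronic embryo DHS overlapped none in L1 arrest.

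**Figure D3:**
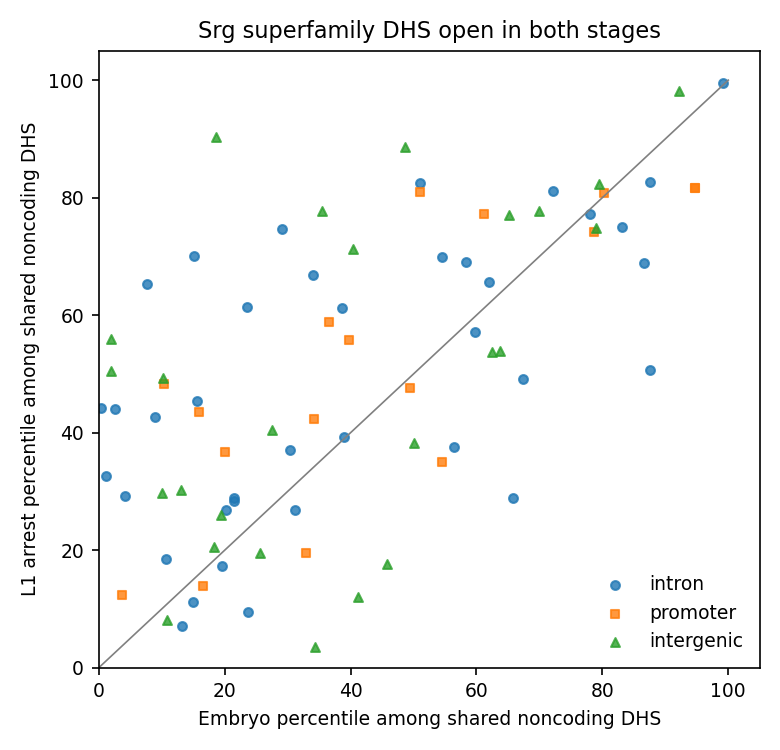
Rank of each of the 80 member DHS pairs open in both stages among all shared sites, by embryo score (horizontal axis, percentile) and by L1 score (vertical axis, percentile), with intronic (circles), promoter (squares) and intergenic (triangles) sites and the line of equal rank. The 50 points above the line ranked higher in L1 arrest, and 22 of them lie over 25 points above it.

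L1 DHS that the authors list as arrest-associated were more frequent at members than in general. They made up 22 of the 102 member L1 DHS, or 21.6% (14.0 to 30.8), against 11.4% over all genes. The other 80 were those that overlapped an embryo noncoding DHS. This share is thus the complement of the 78.4% overlap given above and not a separate result. They fell at 19 members, or 27.9% of the 68 with an L1 DHS, against 18.7% of all genes with one. By family they made up 30.4% of srt DHS (7 of 23, interval 13.2 to 52.9), 24.0% of srg (6 of 25), 20.0% of srv (2 of 10), 18.2% of sru (2 of 11), 15.4% of srx (4 of 26) and 14.3% of srxa (1 of 7). The intervals of the families overlapped. Among the other receptors the share was 22.1% in the solo families (19 of 86), 16.5% in the Str superfamily (27 of 164) and 6.25% in the Sra superfamily (3 of 48).

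**Figure D4:**
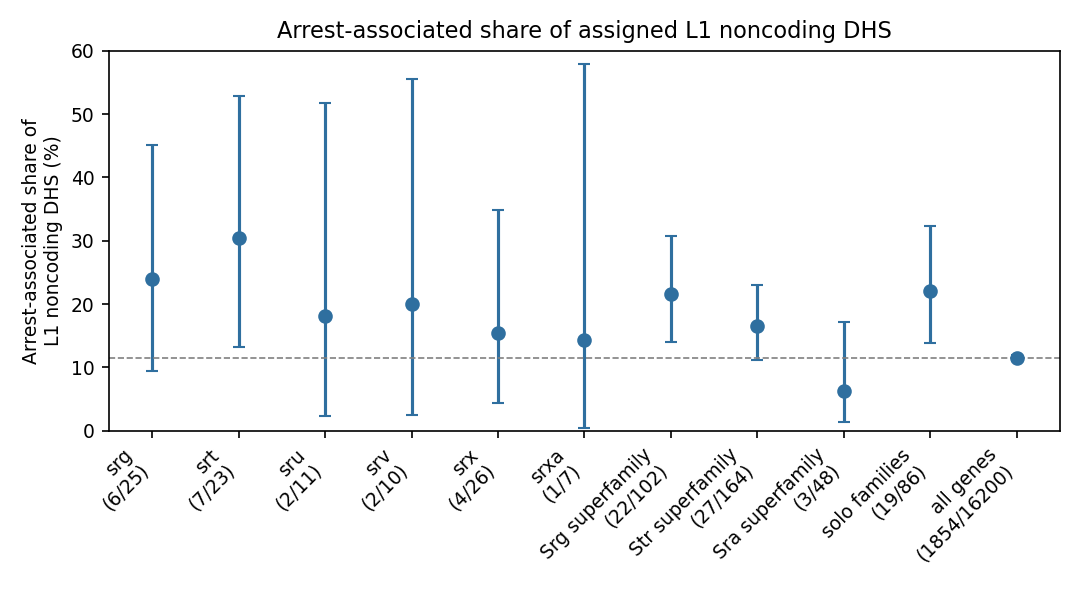
Percent of assigned L1 noncoding DHS that are arrest-associated (vertical axis) for the 6 families, the superfamily, the other chemoreceptor groups and all genes, with the counts in parentheses. Error bars are exact 95% binomial intervals for counting error, and the dashed line is the 11.4% of all genes. The superfamily stands at 21.6% with an interval of 14.0 to 30.8, while every single family but srt has an interval that spans the line.

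The arrest-associated DHS of members were mostly intergenic. They were 13 of 40 intergenic member L1 DHS, or 32.5% (18.6 to 49.1) against 9.96% over all genes. Among introns they were 7 of 45, or 15.6% (6.49 to 29.5) against 13.9%, and among promoters 2 of 17, or 11.8% against 9.23%. On chromosome V they were 13 of 57 (22.8% against 11.7%), on IV 5 of 22 (22.7% against 13.8%), on X 3 of 6 (50.0% against 8.66%), on II 1 of 11 (9.09% against 10.4%), on I 0 of 5 (which allows up to 52.2%) and on III 0 of 1. The intervals were wide, at 12.7 to 35.8 for V, 7.82 to 45.4 for IV, 11.8 to 88.2 for X and 0.230 to 41.3 for II. The value for chromosome II was near that of all genes but rests on 1 site. Across all genes the share fell as the L1 score rose, from 18.8% in the lowest quintile to 5.15% in the highest. From the lowest quintile to the highest, members had 6 of 16 (37.5% against 18.8%), 3 of 21 (14.3% against 13.9%), 8 of 28 (28.6% against 11.7%), 4 of 24 (16.7% against 7.70%) and 1 of 13 (7.69% against 5.15%). The share of members was thus near that of all genes in the second quintile.

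None of the 22 sites (0) overlapped an embryo DHS of any kind, exonic ones included, as was the case for 87.9% of all arrest-associated DHS. An embryo DHS lay within 150 bp of 6 and within 1000 bp of 10, and the median gap was 1840 bp. Their median L1 rank was 45.3, against 51.5 for the other member L1 DHS and 33.7 for all arrest-associated DHS. A footprint was found in 20 of the 22 (90.9%), against 72.5% of all arrest-associated DHS.

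The 9 L1-only members were srg-36, srg-37, srt-12, srt-31, srt-45, srt-47, sru-45, srv-16 and srx-65, and every L1 DHS of these 9 was arrest-associated. That was nearly fixed in advance, since every member L1 DHS that overlapped no embryo noncoding DHS was arrest-associated. A gene without an embryo DHS could differ only where its L1 DHS overlapped an embryo DHS assigned to another gene. The pheromone receptor genes srg-36 and srg-37 are neighbours on chromosome X and overlap each other in the gene table. The DHS of srg-36 lay 299 bp from the gene, just within the promoter limit used here, at chrX:14229221-14229370. It had a score of 207, rank 46.1 and 1 footprint of 21 bp. The DHS of srg-37 lay 996 bp from the gene at chrX:14236281-14236430. From which end of each gene these distances run is not given. With a score of 1209 and rank 97.8 it was the only 1 of the 22 above rank 90, and it held 5 footprints of 23, 9, 22, 7 and 23 bp. The nearest embryo DHS lay 4990 bp from the former and 1910 bp from the latter, and the embryo list held no DHS assigned to either gene.

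The other L1-only members had sites of lower rank. The intronic DHS of srt-47 ranked 59.9 and held 4 footprints, and that of srv-16 ranked 18.5. The intergenic DHS of srt-12 ranked 56.0, that of srt-45 ranked 44.6 and that of srt-31 ranked 27.99. The site of srt-45 stood farthest from the embryo list, with 15410 bp to the nearest embryo DHS. The promoter DHS of sru-45, 129 bp from the gene, ranked 39.7. The 2 intergenic DHS of srx-65 ranked 1.91 and 14.3 and so lie close to the limit of the L1 list.

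The arrest-associated DHS of 10 further members were at genes that also had an embryo DHS, at a close or a longer distance. Between 2 intronic DHS of srt-52 that were open in both stages lay an arrest-associated 1 at chrV:51921-52070 with rank 64.8, 90 bp from the nearest embryo DHS. The intronic sites of srxa-9 followed the same layout, with an arrest-associated DHS of rank 2.22 and 3 footprints among 3 shared ones. At srg-66 the sites at chrV:5477241-5477390 (rank 25.2) and chrV:5479981-5480130 (rank 54.1) each lay next to a shared DHS, at 110 and 30 bp. At srx-50 the site ranked 63.7 and lay 90 bp from the shared DHS, which itself went from 35.4 to 77.7 in the shared rankings. The site of srg-24 ranked 5.78 and held 4 footprints, and that of srg-30 ranked 61.4 and held 3. In srx-55 and srv-15 an embryo and an L1 DHS lay in introns without overlapping, 76 and 438 bp apart, and neither L1 site held a footprint. The site of sru-17 ranked 19.1 and lay 3240 bp from the gene and 3990 bp from the nearest embryo DHS. At srt-13 there were 2 sites, of rank 57.2 and 77.6, at 2950 and 1770 bp from the nearest embryo DHS.

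Member DHS were grouped into genomic clusters by joining those up to 50 kb apart, which gave 63 clusters. Of these, 24 held 2 or more members (60 genes) and 39 held 1. An arrest-associated DHS fell in 16 clusters, and 13 clusters had embryo DHS only against 4 with L1 DHS only. With the embryo list the longer and no such count over all genes, this shows no lean of the members. The largest, chrII:3668921-3710100, held 7 srx genes with 10 embryo and 2 L1 DHS and 0 arrest-associated ones. Its embryo ranks ran from 3.46 at srx-110 and 7.46 at srx-104 to 51.2 at srx-105 and 64.6 at srx-101. The sites of srx-98 (31.9), srx-102 (33.0) and srx-108 (44.6 and 46.1) were embryo-only. The L1 DHS of the cluster belonged to srx-101 (rank 73.0) and srx-105 (rank 10.3).

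The next clusters differed in their balance. That of srx-119 and srx-120 at chrII:12529244-12533790 had 5 embryo and 4 L1 DHS, with 3 of the 4 embryo DHS of srx-120 open in both stages. The cluster of srg-65 and srg-66 at chrV:5477241-5484330 had 3 embryo and 5 L1 DHS, 2 of them arrest-associated. Another on chromosome V, of srt-12, srt-13 and srt-36 at chrV:4244741-4268830, had 2 embryo and 5 L1 DHS, of which 3 were arrest-associated. These 3 lay between positions 4244741 and 4246570 and belonged to srt-12 and srt-13, while the DHS of srt-36 was open in both stages, at rank 37.6 and 32.3.

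Genes outside arrays of the superfamily had DHS at least as often as genes within them. Arrays here count coding genes of the superfamily only. A gene outside them can thus lie among other receptors, as srx-18 does between srh-288 and srh-287. Of 119 such genes with no other coding gene of the superfamily as a direct neighbour, 32.8% (24.4 to 41.98) had an embryo DHS. An L1 DHS was found at 23.5% (16.2 to 32.2), and 11 had an arrest-associated one. In arrays of 2 to 3 genes the values were 24.7% and 22.6% of 93 genes, with 3 arrest-associated. In arrays of 4 or more they were 24.7% and 15.5% (8.92 to 24.2) of 97 genes, with 4. The intervals of the 3 classes overlapped. Within arrays, 22.9% (15.7 to 31.5) of 118 edge genes and 27.8% (17.9 to 39.6) of 72 interior genes had an embryo DHS, and 19.5% and 18.1% an L1 DHS. Edge and interior genes were not told apart by these counts.

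The share of member DHS with a footprint was close to that elsewhere. In the embryo 114 of 140 member DHS held 1 or more, or 81.4% (74.0 to 87.5) against 81.9% over all genes, and in L1 arrest 86 of 102, or 84.3% (75.8 to 90.8) against 83.9%. The mean number in a DHS with any was 2.46 and 2.37, against 2.62 and 2.47. Most embryo footprints were found at srt-61, with 11 over 3 DHS, 8 of them in the intronic DHS at chrI:10905321-10905470 (rank 92.5). In L1 arrest srxa-9 had most, with 12. The coding gene F49D11.6 overlaps srt-61 in the gene table. In the stretches shared by the 80 pairs, 109 of 151 L1 footprints overlapped an embryo footprint. The same count was not made over all shared pairs, so it cannot be called high or low for members.

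Other genes of the chemosensory pathway had DHS more often than the receptors. Of 27 signalling genes 19 had an embryo DHS and 15 an L1 DHS, where 52.4% and 38.9% of all coding genes did. Of the 15, 3 had an arrest-associated DHS, where 18.7% of all genes with an L1 DHS did. The cyclic GMP-dependent kinase gene egl-4 had 13 embryo and 9 L1 DHS, the calcineurin gene tax-6 7 and 7, and the G protein alpha subunit genes gpa-6 and odr-3 6 and 5 and 5 and 3. The channel subunit gene tax-4 had 4 and 2, and the guanylyl cyclase gene odr-1 had none (0) in either list. The arrest-associated DHS belonged to tax-6, goa-1, a G protein alpha subunit gene, and rgs-3, a regulator of G protein signalling. Of 20 genes for factors of sensory neuron identity 18 had an embryo and 15 an L1 DHS, and 4 of the 15 had an arrest-associated one. Among them sox-2 had 8 and 7, and daf-19, the RFX factor of ciliated neurons, had 8 and 5. The arrest-associated DHS were at daf-19, ceh-36, unc-86 and kin-29, a kinase known to act on chemoreceptor expression.

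Marker genes did not set the stages apart by presence of a DHS. Of 8 early embryonic lineage genes 5 had an embryo and 4 an L1 DHS, and of 7 protein-coding larval genes 3 and 2. Of 5 chemosensory neuron markers 4 had an embryo and 2 an L1 DHS, of 3 intestinal markers 3 and 2, and of 3 muscle markers 3 and 2. An assigned DHS is not a measure of expression, so these lists do not check the labelled stage.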

How the data were processed

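Nuclei of N2 embryos (4 replicates) and of larvae in L1 arrest (5) were digested with DNase I and sequenced, with reads of 50 bp or, in 1 embryo and 2 L1 libraries, 76 bp, per the labels. FastQC, Bowtie 1.0.0, SAMtools and the ce10 build are named in the submitters' processing notes. The authors called peaks with HOTSPOT version 3 over 150 bp, filtered them at an IDR level of 0.1, removed repeats and blacklisted regions and merged them per stage, and used DNase2TF to call footprints of 6 to 40 bp (FDR threshold 0.05), per the series design text. Exonic meant 75% within an exon and promoter under 300 bp from a start codon, per the same text. Here promoter meant under 300 bp from the gene by the deposited distance, which can run to either end of the gene. Each DHS and footprint carries a score deposited by the authors. The sources used here do not give the scale of this score, the depth or the rule for arrest-associated DHS. Over all genes 14346 of the 16200 L1 rows overlapped an embryo noncoding DHS and 1854 were arrest-associated, which together make up the list. At members the overlapping and the arrest-associated L1 DHS were exact complements. Scores were ranked only within a list. Removal of repeats, and of exons from the noncoding lists, can leave out or shorten sites in arrays of similar genes.

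The lists hold 41825 embryo and 23670 L1 DHS, of which 26644 and 16084 are noncoding and 1835 arrest-associated. Overlapping footprints were merged. Coordinates are in ce10 and count from 1. Gene names and neighbours came from the WBcel235 gene table, none of whose coordinates are given, and all 99 members matched by symbol. Each reported assignment is the deposited one. Where a share is given over all genes it counts rows of the gene tables. Python 3.11.15, pandas 2.3.3, NumPy 2.4.6 and SciPy 1.17.1 were used, and the counting was tested on simulated lists. The members and gene lists were chosen with earlier results of these data known. Named members are those with an arrest-associated DHS, an L1 DHS only, the most DHS (10 overall and 1 per family), the 5 highest scores or the most footprints per stage, and those of the 3 clusters with most DHS. Other named members were chosen after their values were seen. Genome and promoter sequences were not used here.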

Additional observations from a re-analysis of the deposited data

How the results depend on the processing

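Over 25 alternatives to the counts and shares above, 23 left the value within 1.5 times of a count or within its interval. Some of the 23 could not have changed it. Every member DHS was assigned to a single gene, so keeping only uniquely assigned DHS removed none. No arrest-associated member DHS overlapped an embryo DHS of any kind, so excluding such overlap also removed none. When the embryo list was cut to the length of the L1 list by score, 59 members had an embryo DHS in place of 90, and 81.0% of their embryo DHS overlapped an L1 DHS in place of 57.1%. That alternative drops the weakest embryo sites. The 59 is below the 68 members with an L1 DHS, so the order of the stages in this count depends on list length. Values over all genes for the cut list are not given. Members with an arrest-associated DHS numbered 14 in place of 19 without the lowest score quintile, and 14 with introns and sites within 1000 bp only. The arrest-associated share ran from 18.6% to 23.7%. Without the X chromosome it was 19.8%, an alternative chosen, like the exclusion of any embryo overlap, after seeing the data. Joining DHS up to 20 kb or 100 kb apart gave 69 or 55 clusters. No paired analysis was possible because the lists merge the replicates of a stage, and for the same reason no replicate could be left out. The depth of the lists, the length of each list and the 2 read lengths within a stage limit every comparison between stages.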
